A study of Mus musculus with 8 samples.

Results

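The genes described here are the Wnt ligands with their receptors, secreted antagonists and agonists, and 3 genes of the nuclear response. These make up 47 of the 50600 genes in the deposited tables, picked by gene symbol with earlier results of these data known. They are 19 Wnt ligands, 10 Frizzled receptors, the co-receptors Lrp5 and Lrp6, 9 secreted antagonists (4 Sfrps, 4 Dkks and Wif1), 4 R-spondins, and Axin2, Lef1 and Tcf7. RNA was sequenced from fibroblasts of C57BL/6 mouse embryos after 7 days in 0.1% ethanol, 1% DMSO, 5 µM I-CBP112 or 5 µM C646, with 2 libraries per treatment and 8 in all. Cells of every group, ethanol included, carried retroviruses for the GHMT factors Gata4, Hand2, Mef2c and Tbx5, which turn part of a fibroblast culture towards heart muscle cells, and the labels name no sorting of the cells that responded. I-CBP112 binds the bromodomain of the acetyltransferases CBP and p300, and C646 inhibits their catalytic activity; ethanol and DMSO are solvents, and the solvent of each inhibitor was not given in the sources used here. Nothing there says that the 2 libraries of a group came from separate cultures, so that the variation behind errors and p-values may be technical. The errors come from a fitted dispersion of each gene, not from the spread of the 2 libraries of each group. In bulk RNA of such a mixed culture, fewer cells of a type and less RNA per cell cannot be told apart.

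Wnt proteins are secreted, lipid-bearing signals that bind a Frizzled receptor together with the co-receptor Lrp5 or Lrp6. In the canonical branch this stabilises beta-catenin, which enters the nucleus, binds Tcf and Lef factors and recruits coactivators, CBP and p300 among them; Axin2 is a feedback inhibitor that most canonically responding cells switch on. Sfrps and Wif1 bind Wnts outside the cell, Dkk1 and its relatives act on the Lrp co-receptors, and R-spondins raise the number of receptors at the surface through Lgr receptors and the ligases Rnf43 and Znrf3. Non-canonical Wnts such as Wnt5a and Wnt11 act through other routes on cell polarity and movement, and Wnt signals both promote and restrain heart muscle formation, depending on the stage.

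Values are the authors' mean normalised counts over all 8 libraries, and group means rebuilt from that mean and the 3 deposited log2 fold changes; ± is a standard error (SE) of groups of 2 libraries. Values of single libraries are not used here. The group means summed over all genes to between 3.75e+07 and 3.86e+07. Of the 47 genes, 46 had a mean above 0 and 28 had an adjusted p in the DMSO and I-CBP112 tables, where the authors' DESeq2 filter kept genes with a mean over all libraries of 26.1 or more. Those 28 had means from 66.3 (Wif1) to 8897 (Dkk3). The other 19 had means from 0 (Wnt1) to 25.0 (Sfrp4) and carry no call: Wnt1, Wnt3, Wnt3a, Wnt6, Wnt7a, Wnt7b, Wnt8a, Wnt8b, Wnt9b, Wnt10a, Wnt10b, Fzd9, Fzd10, Dkk1, Dkk4, Sfrp4, Rspo4, Lef1 and Tcf7. Their smallest unadjusted p in any of the authors' deposited tables was 0.060.

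Against ethanol, 15 of the 28 tested genes changed with DMSO, 13 downward and 2 upward, and 15 changed with I-CBP112, again 13 downward and 2 upward; a call is an adjusted p below 0.05 there, from DESeq2 in the authors' deposited tables. Over all 14830 tested genes the same rule called 16.0% with DMSO, 1197 upward and 1171 downward, and 9.90% with I-CBP112, 689 upward and 779 downward. The median log2 fold change of the 28 genes was -0.43 with DMSO and -0.41 with I-CBP112, where all tested genes had medians of 0.03 and 0.01. Under Student's t with 4 degrees of freedom in place of DESeq2's normal test, 0 of the 28 were called in either comparison, nor in any between treatments. Over all 14830 tested genes that setting called 1 gene with DMSO and 0 with I-CBP112, so that it does not set the Wnt genes apart from the others. Both comparisons use the same ethanol libraries, so that they are not independent of each other. With C646, 0 of 46 genes passed the authors' test, 0 had an unadjusted p below 0.05, and the test called 0.00584% of all 34250 genes.

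**Figure D1:**
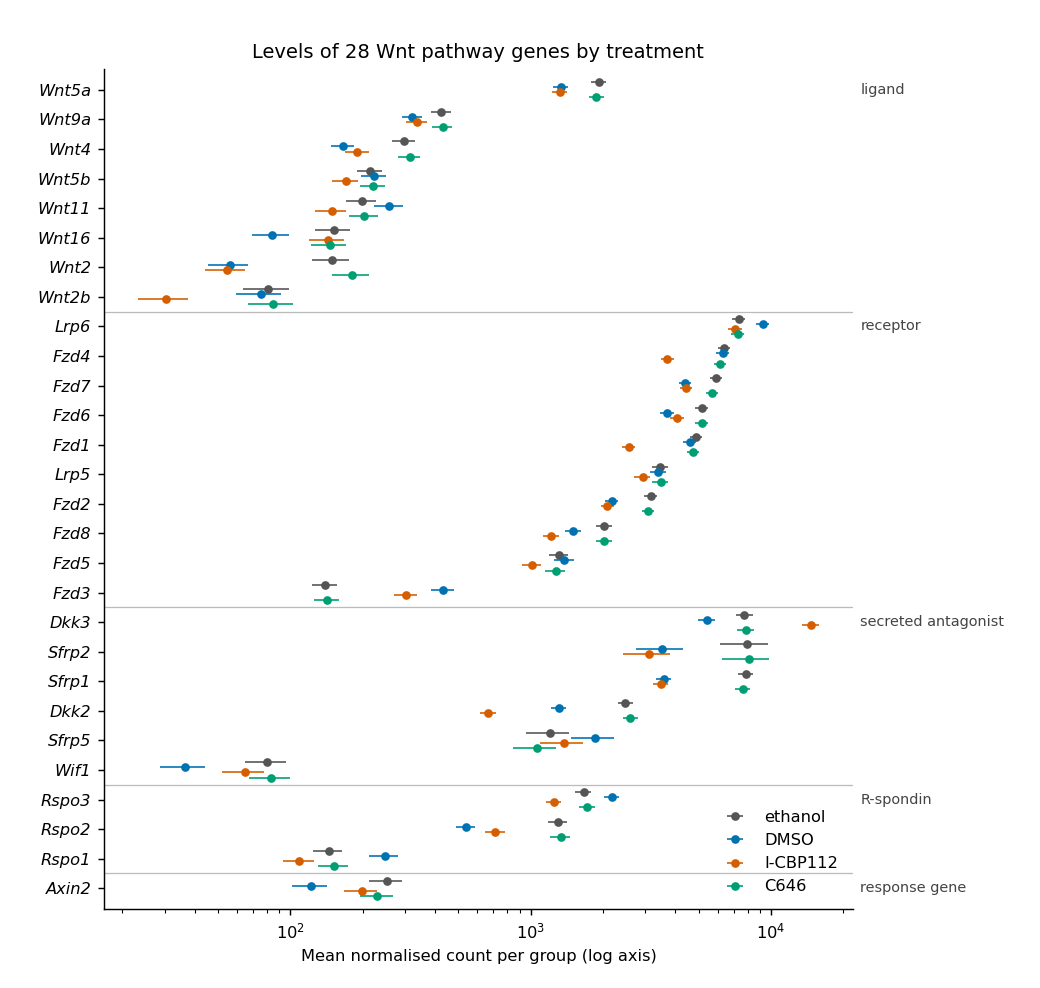
Group means (mean normalised count, log axis) of the 28 tested genes, ordered by role; points are the 4 treatments, bars their SE over 2 libraries. Counts are not divided by gene length, so that genes are to be compared across treatments only; ethanol (grey) and C646 (green) points lie close together in every row, and Dkk3 with I-CBP112 is the rightmost point at 14611.

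Of the 19 ligand genes, 8 were tested, 3 fell with DMSO and 4 with I-CBP112, and 0 rose. Scaled to the length of the principal transcript, Wnt5a had the highest mean over all libraries of the ligands, 230 normalised counts per kb, 32.7% of the ligand sum, and Wnt9a had 114. Scaled to the transcript length listed in the deposited tables Wnt11 came first with 34.2%, so that the order of the ligands depends on the length used. Wnt5a, a non-canonical ligand of mesenchymal cells (ENSMUSG00000021994.14, chromosome 14, 28504750 to 28527448, plus strand), had 1925 ± 138 counts in ethanol, 1335 ± 96.7 in DMSO, 1326 ± 96.1 in I-CBP112 and 1877 ± 135 in C646. The DMSO and I-CBP112 groups were both low: the log2 fold changes in the authors' deposited tables were -0.53 ± 0.15 with DMSO (adjusted p = 0.0038) and -0.54 ± 0.15 with I-CBP112 (adjusted p = 0.0045), and the 95% interval of the difference between them ran from -0.30 to 0.28.

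Wnt2, a ligand that acts in heart and lung development, was low in the same treatments. It had 150 ± 26.2 counts in ethanol, 56.2 ± 10.7 in DMSO, 54.6 ± 10.4 in I-CBP112 and 180 ± 31.3 in C646. In the authors' deposited tables that is a log2 fold change of -1.42 ± 0.37 with DMSO (adjusted p = 0.0020) and -1.46 ± 0.37 with I-CBP112 (adjusted p = 0.0021), 2.67 and 2.74 times lower than with ethanol. Wnt4, known for its part in kidney and gonad formation, also fell in both, from 298 ± 32.2 counts to 166 ± 18.9 with DMSO and 190 ± 21.4 with I-CBP112. Its log2 fold changes in the authors' deposited tables were -0.85 ± 0.23 (adjusted p = 0.0024) and -0.65 ± 0.22 (adjusted p = 0.042), and the I-CBP112 call was lost with an adjusted p of 0.052 when groups were scaled to equal totals. Wnt2b, the close relative of Wnt2, had 81.1 ± 17.3 counts in ethanol, 75.3 ± 16.1 in DMSO, 30.4 ± 7.17 in I-CBP112 and 84.6 ± 17.9 in C646. Only the I-CBP112 group was low, with a log2 fold change of -1.41 ± 0.46 in the authors' deposited table (adjusted p = 0.027), while the direct difference between I-CBP112 and DMSO, -1.31 ± 0.46, did not pass (adjusted p = 0.059).

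The other 4 tested ligands were not past the test in either table. Wnt9a stood at -0.40 ± 0.20 with DMSO and -0.34 ± 0.20 with I-CBP112 in the authors' deposited tables. Wnt16, which acts in bone, had 152 ± 25.1 counts with ethanol and 84.1 ± 14.6 with DMSO, a log2 fold change of -0.85 ± 0.35 in the authors' deposited table that missed the threshold (adjusted p = 0.075); with I-CBP112 it had 143 ± 23.7. Wnt11, a non-canonical ligand of the forming heart, stood at 0.38 ± 0.29 and -0.42 ± 0.29 in the authors' deposited tables of DMSO and I-CBP112, and Wnt5b at 0.05 ± 0.25 and -0.33 ± 0.25. Wnt5b overlaps Fbxl14, a gene with 1029 mean counts on the opposite strand, and whether counting used strand was not given in the sources used here.

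Among the receptors, 10 of 12 genes were tested; 4 fell and 1 rose with DMSO, and 5 fell and 1 rose with I-CBP112. Lrp5 and Lrp6, the co-receptors, were not past the test in either. Lrp5 had 3451 ± 264 counts in ethanol, 3389 ± 259 in DMSO, 2925 ± 224 in I-CBP112 and 3470 ± 265 in C646. Lrp6 had 7339 ± 473 counts in ethanol, 9230 ± 594 in DMSO, 7085 ± 457 in I-CBP112 and 7260 ± 468 in C646, and its log2 fold change with DMSO in the authors' deposited table, 0.33 ± 0.13, had an adjusted p of 0.068. Of the 8 tested Frizzleds, Fzd2, Fzd7 and Fzd8 fell with both DMSO and I-CBP112, Fzd1 and Fzd4 passed with I-CBP112 only, Fzd3 rose with both, Fzd6 passed with DMSO only, and Fzd5 passed in neither.

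Fzd7 (ENSMUSG00000041075.8, chromosome 1, 59482424 to 59486955, plus strand), at 1127 normalised counts per kb over all libraries, had 5919 ± 335 counts in ethanol, 4390 ± 249 in DMSO, 4441 ± 252 in I-CBP112 and 5683 ± 321 in C646. Its log2 fold changes in the authors' deposited tables were -0.43 ± 0.12 (adjusted p = 0.0025) and -0.41 ± 0.12 (adjusted p = 0.0057). Fzd2, a receptor for Wnt5a among others, had 3159 ± 190 counts in ethanol, 2169 ± 131 in DMSO, 2087 ± 127 in I-CBP112 and 3086 ± 185 in C646, and was at -0.54 ± 0.12 (adjusted p = 2.01e-04) and -0.60 ± 0.12 (adjusted p = 4.66e-05) in the authors' deposited tables. Fzd8 had 2028 ± 153, 1506 ± 115, 1213 ± 93.0 and 2017 ± 152 counts in that order. It was at -0.43 ± 0.15 (adjusted p = 0.038) and -0.74 ± 0.16 (adjusted p = 6.61e-05) there. For each of these 3 genes the difference between I-CBP112 and DMSO did not pass, with 95% intervals from -0.21 to 0.24 for Fzd7, -0.30 to 0.19 for Fzd2 and -0.62 to -0.01 for Fzd8. Fzd6, a Frizzled of planar polarity, had 5146 ± 339, 3692 ± 244, 4057 ± 268 and 5152 ± 340 counts in that order. It was at -0.48 ± 0.13 with DMSO (adjusted p = 0.0043) and -0.34 ± 0.13 with I-CBP112 (adjusted p = 0.090) in the authors' deposited tables. The difference of its 2 values was 0.14 ± 0.13 (adjusted p = 0.71), so that its passing in one table only is not shown to be a difference between the treatments.

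Fzd1 and Fzd4 were low with I-CBP112 and near the ethanol level with DMSO. Fzd1 (ENSMUSG00000044674.6, chromosome 5, 4753839 to 4758035, minus strand), had 4890 ± 290 counts in ethanol, 4592 ± 273 in DMSO, 2560 ± 154 in I-CBP112 and 4741 ± 281 in C646. Fzd4 (ENSMUSG00000049791.4, chromosome 7, 89404355 to 89413134, plus strand), the Norrin receptor of retinal vessels, had 6393 ± 382, 6307 ± 376, 3707 ± 223 and 6142 ± 367 counts in the same order. Against ethanol the authors' deposited table of I-CBP112 has Fzd1 at -0.93 ± 0.12 (adjusted p = 2.93e-12) and Fzd4 at -0.79 ± 0.12 (adjusted p = 1.27e-08), 1.91 and 1.72 times lower. Against DMSO the differences were -0.84 ± 0.12 for Fzd1 (adjusted p = 1.23e-09) and -0.77 ± 0.12 for Fzd4 (adjusted p = 6.26e-08). Both passed this normal test with rebuilt standard errors. Under Student's t with 4 degrees of freedom neither passed (adjusted p = 0.54 for each).

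Fzd3, a receptor of axon guidance and planar polarity (ENSMUSG00000007989.6, chromosome 14, 65192449 to 65262463, minus strand), was the 1 receptor that rose. It had 140 ± 16.8 counts in ethanol, 434 ± 47.8 in DMSO, 304 ± 34.2 in I-CBP112 and 143 ± 17.2 in C646. The DMSO and I-CBP112 groups both lay above ethanol, 3.11 and 2.18 times, with log2 fold changes in the authors' deposited tables of 1.64 ± 0.24 (adjusted p = 2.76e-10) and 1.12 ± 0.24 (adjusted p = 9.40e-05). Per kb it remained the lowest of the tested receptors, at 20.0. Fzd5, the remaining tested Frizzled, was at 0.07 ± 0.19 and -0.37 ± 0.19 in the authors' deposited tables, not past the test.

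**Figure D2:**
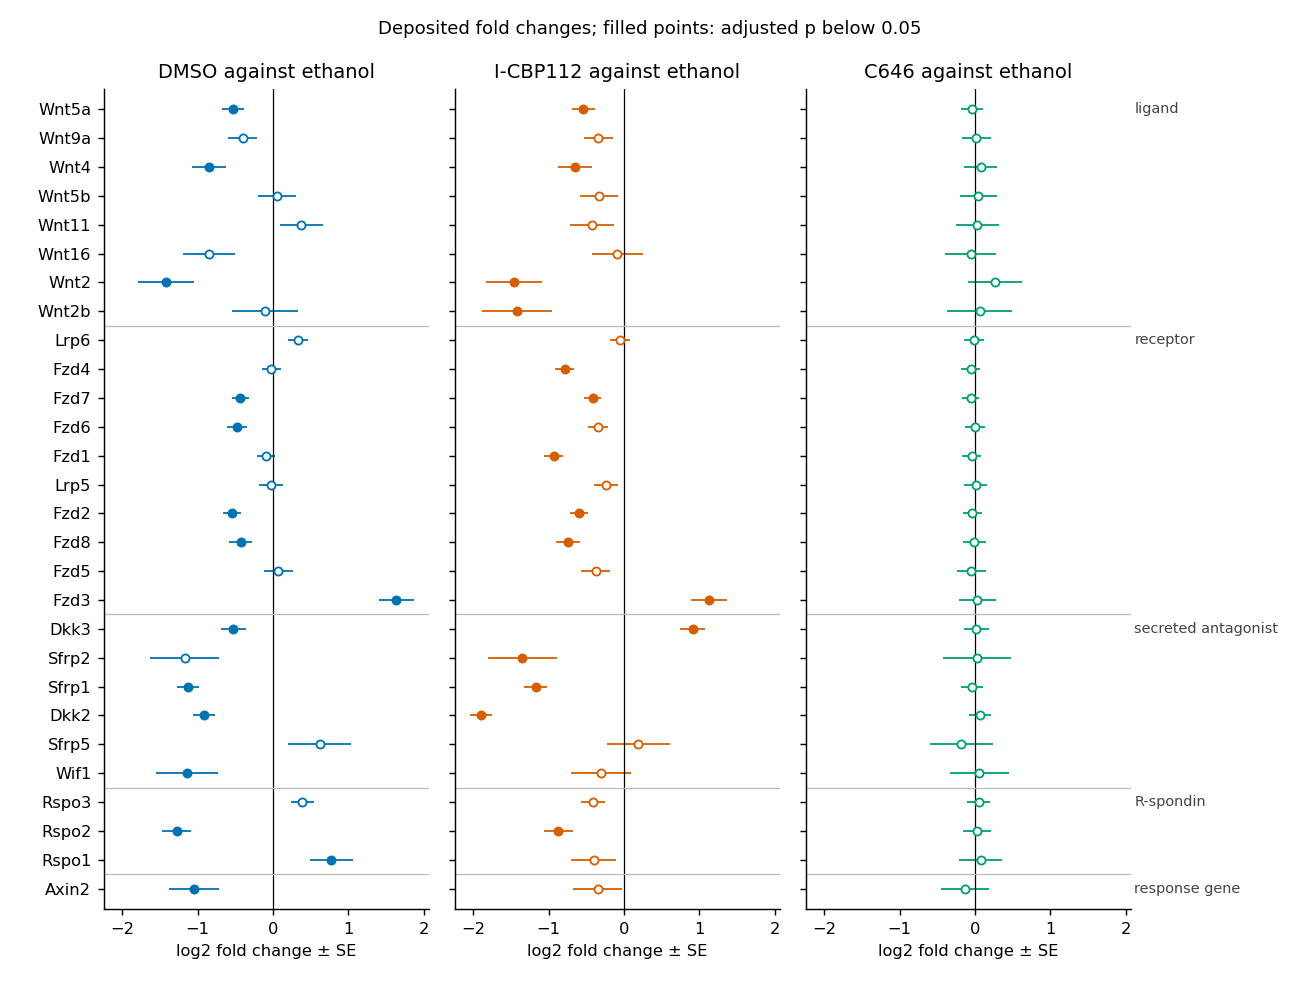
Deposited log2 fold changes against ethanol (± SE) of the 28 tested genes, 1 panel per treatment; filled points have an adjusted p below 0.05. The DMSO and I-CBP112 panels each hold 15 filled points, 13 of them left of 0, and the C646 panel holds 0, with every point between -0.18 and 0.27.

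The 250 bases before the RefSeq start of 4 genes are shown to set the Frizzleds that were low with I-CBP112 but not with DMSO (Fzd1, Fzd4) beside a Frizzled and an antagonist that fell with both (Fzd7, Dkk2). They are RefSeq sequences on GRCm38.p6, 5′ to 3′ on the gene's strand: Fzd1 at chr5:4758217-4758466 (minus), Fzd4 at chr7:89404116-89404365 (plus), Fzd7 at chr1:59481897-59482146 (plus) and Dkk2 at chr3:132085042-132085291 (plus). The RefSeq start differs from the GENCODE gene positions printed with the values for Fzd1 and Fzd7, where it lies upstream, and for Fzd4, where the window reaches a few bases into the gene. Capitals mark matches on either strand to a GATA site (AGATAA or TGATAA), to the TATA box letters TATAAA, or to the Tcf and Lef letters given in the next paragraph.
Fzd1: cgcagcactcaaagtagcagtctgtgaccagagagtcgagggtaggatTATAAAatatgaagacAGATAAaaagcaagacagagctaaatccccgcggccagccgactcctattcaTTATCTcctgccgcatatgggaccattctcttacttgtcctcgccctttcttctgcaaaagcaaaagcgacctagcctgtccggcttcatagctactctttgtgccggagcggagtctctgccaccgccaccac
Fzd4: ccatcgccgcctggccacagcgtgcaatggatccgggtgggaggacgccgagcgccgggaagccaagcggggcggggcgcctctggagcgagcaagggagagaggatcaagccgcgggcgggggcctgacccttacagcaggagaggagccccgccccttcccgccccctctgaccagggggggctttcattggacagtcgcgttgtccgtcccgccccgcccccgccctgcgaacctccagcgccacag
Fzd7: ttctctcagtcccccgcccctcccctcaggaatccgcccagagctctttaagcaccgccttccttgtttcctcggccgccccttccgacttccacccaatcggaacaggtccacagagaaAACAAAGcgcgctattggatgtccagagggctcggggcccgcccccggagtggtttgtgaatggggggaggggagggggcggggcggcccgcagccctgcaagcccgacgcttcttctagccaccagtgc
Dkk2: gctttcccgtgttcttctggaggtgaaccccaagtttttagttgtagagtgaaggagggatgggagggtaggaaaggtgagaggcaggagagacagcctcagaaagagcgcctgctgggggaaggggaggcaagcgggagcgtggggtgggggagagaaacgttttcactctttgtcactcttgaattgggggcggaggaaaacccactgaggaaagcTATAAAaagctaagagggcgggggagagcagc
Fzd1 held 2 GATA matches and 1 TATA match, Fzd7 held 1 Tcf and Lef match, Dkk2 held 1 TATA match 27 to 32 bases before its start, and Fzd4, whose window was 72.8% G and C, held none of these.

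The RefSeq promoter table matched 31 of the 47 genes, and GATA matches were in 5 of these 31 (16.1%) and in 18.8% of 27025 genes. Tcf and Lef sites, searched as CTTTGAA, with its variant CTTTGAT, besides CTTTGTA, with its variant CTTTGTT, on both strands, were in 5 of 31 (Dkk1, Fzd7, Lef1, Wnt5b and Wnt11; 16.1%) and in 16.8% of all genes. TATA matches were in 7 of 31 (22.6%) and in 14.3% of all genes. The T-box letters GGTGTGA, a MEF2 motif and the CRE letters TGACGTCA, searched on both strands, were in 0 of 31, and in 3.84%, 3.70% and 1.77% of all genes. A match is a description of the letters in this window only.

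Of the 9 secreted antagonists 6 were tested; 4 fell with DMSO, and 3 fell and 1 rose with I-CBP112. Dkk3, a divergent member of the Dickkopf family whose action on Wnt signals is less settled than that of Dkk1 (ENSMUSG00000030772.6, chromosome 7, 112116017 to 112159057, minus strand), went in opposite directions. It had 7752 ± 630 counts in ethanol, 5394 ± 439 in DMSO, 14611 ± 1185 in I-CBP112 and 7832 ± 637 in C646. DMSO was the lowest group and I-CBP112 the highest, with log2 fold changes in the authors' deposited tables of -0.52 ± 0.17 (adjusted p = 0.015) and 0.91 ± 0.17 (adjusted p = 2.02e-06). Between the 2 treatments Dkk3 differed 2.71-fold, a log2 difference of 1.44 ± 0.17 (adjusted p = 2.96e-15), and of the 28 genes it was the 1 that passed this test in the upward direction.

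Dkk2, a Dickkopf that acts on Lrp5 and Lrp6 (ENSMUSG00000028031.6, chromosome 3, 132085292 to 132180304, plus strand), fell with both and further with I-CBP112. It had 2478 ± 177 counts in ethanol, 1312 ± 95.5 in DMSO, 667 ± 50.2 in I-CBP112 and 2602 ± 186 in C646. In the authors' deposited tables its log2 fold changes were -0.92 ± 0.15 with DMSO (adjusted p = 2.38e-08) and -1.89 ± 0.15 with I-CBP112 (adjusted p = 2.68e-33), 1.89 and 3.72 times lower. The step from DMSO to I-CBP112, -0.98 ± 0.15, passed as well (adjusted p = 1.95e-08).

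Sfrp1 and Sfrp2, secreted decoys that carry the Wnt-binding domain of the Frizzleds, were both low in DMSO and I-CBP112, with unlike errors. Sfrp1 had 7832 ± 574 counts in ethanol, 3588 ± 265 in DMSO, 3482 ± 257 in I-CBP112 and 7624 ± 559 in C646, with log2 fold changes in the authors' deposited tables of -1.13 ± 0.15 with DMSO (adjusted p = 5.73e-12) and -1.17 ± 0.15 with I-CBP112 (adjusted p = 1.13e-12). The difference between I-CBP112 and DMSO was -0.04 ± 0.15 for Sfrp1, with a 95% interval from -0.34 to 0.25. Sfrp2 had 7914 ± 1756, 3516 ± 781, 3116 ± 692 and 8063 ± 1789 counts in the same order. Its log2 fold change with I-CBP112, -1.34 ± 0.45, passed in the authors' deposited table (adjusted p = 0.034) and that with DMSO, -1.17 ± 0.45, did not (adjusted p = 0.058); the difference between them was -0.17 ± 0.45. The standard errors of Sfrp2 correspond to a coefficient of variation between libraries of 31.4% beyond counting error, against 10.3% for Sfrp1 and a median of 12.2% over all tested genes.

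Wif1, a Wnt-binding antagonist of cartilage and bone, had 80.3 ± 15.5 counts in ethanol, 36.4 ± 7.69 in DMSO, 64.9 ± 12.8 in I-CBP112 and 83.5 ± 16.0 in C646. It fell with DMSO by 1.14 ± 0.41 on the log2 scale in the authors' deposited table (adjusted p = 0.038), and with I-CBP112 stood at -0.31 ± 0.40 (adjusted p = 0.80). The difference between I-CBP112 and DMSO was 0.84 ± 0.42 for Wif1 and did not pass (adjusted p = 0.27). Sfrp5, an antagonist also made by fat and epicardial cells, had 1205 ± 245, 1847 ± 375, 1376 ± 279 and 1062 ± 216 counts in the 4 groups in the order ethanol, DMSO, I-CBP112, C646, and was not past the test. Its errors too were wide, with a coefficient of variation of 28.6%.

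**Figure D3:**
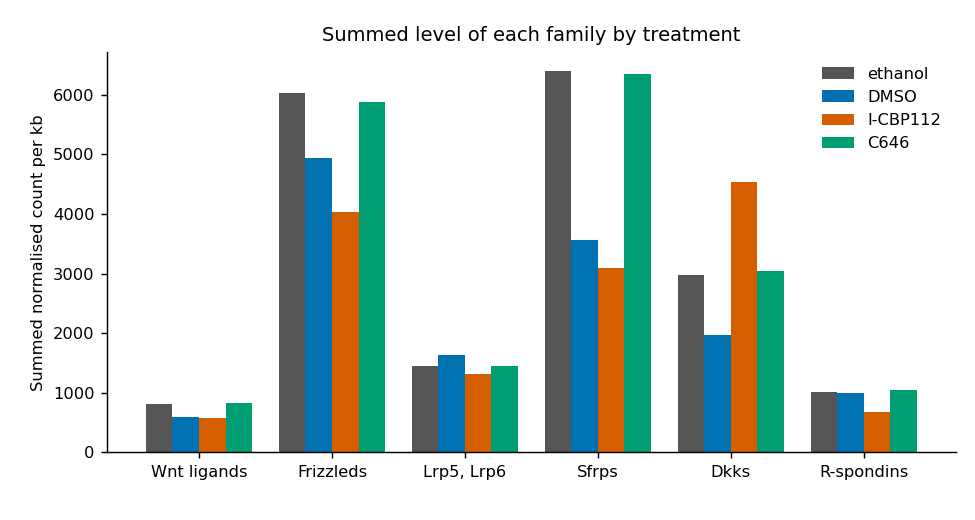
Bars are normalised counts per kb of principal transcript, summed over all members of a family in each treatment, on an axis that starts at 0; they have no error bars and were not tested. Summed Sfrps are highest with ethanol (6396) and C646 (6343), and summed Dkks, mostly Dkk3, are highest with I-CBP112 (4533).

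Summed per kb, the families differed in how they moved, as a description without a test. The Sfrp sum was 6396 in ethanol, 3558 in DMSO, 3090 in I-CBP112 and 6343 in C646. The Dkk sum was 2979, 1962, 4533 and 3039 in that order, so that DMSO lay below and I-CBP112 above ethanol. Dkk3 made up 84.7% of the Dkk sum over all libraries, so that the sum mainly follows this gene. Dkk2, the other tested Dkk, fell with I-CBP112 (log2 fold change -1.89 ± 0.15 in the authors' deposited table). Sfrp2 made up 58.2% of the Sfrp sum over all libraries, and its change with DMSO did not pass in the authors' deposited table (adjusted p = 0.058). Sfrp1 fell past the test with DMSO and I-CBP112, while Sfrp5, not past the test, had 1847 counts with DMSO against 1205 with ethanol. The Frizzled sum was 6023, 4945, 4035 and 5875, and the ligand sum 813, 602, 579 and 826. With the transcript lengths of the deposited tables the ligand sum was 11.1% lower with DMSO than with ethanol, in place of 26.0%.

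The R-spondins, which strengthen Wnt signals, went apart from each other. Rspo2 had 1303 ± 120 counts in ethanol, 538 ± 51.0 in DMSO, 714 ± 66.7 in I-CBP112 and 1331 ± 122 in C646, so that both DMSO and I-CBP112 were low. In the authors' deposited tables its log2 fold changes were -1.27 ± 0.19 (adjusted p = 1.33e-09) and -0.87 ± 0.19 (adjusted p = 1.47e-04). Rspo1 had 144 ± 20.5, 247 ± 33.8, 109 ± 15.9 and 152 ± 21.5 counts in the order ethanol, DMSO, I-CBP112, C646. With DMSO it stood at 0.77 ± 0.29 in the authors' deposited table (adjusted p = 0.043), a call lost when fold changes were centred on the median gene (adjusted p = 0.059) or groups were scaled to equal totals (adjusted p = 0.052). Rspo3, with the highest level per kb of the R-spondins (551), had 1659 ± 124, 2175 ± 162, 1249 ± 94.5 and 1721 ± 129 counts. Neither of its values passed against ethanol in the authors' deposited tables, at 0.39 ± 0.15 with DMSO (adjusted p = 0.062) and -0.41 ± 0.15 with I-CBP112 (adjusted p = 0.070), but they lay on opposite sides. Directly compared, I-CBP112 was below DMSO by 1.74-fold for Rspo3 (log2 difference -0.80 ± 0.15, adjusted p = 1.63e-05) and by 2.26-fold for Rspo1 (-1.18 ± 0.29, adjusted p = 0.0017).

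Of the 3 genes of the nuclear response Axin2 alone was tested. It had 252 ± 39.5 counts in ethanol, 122 ± 19.9 in DMSO, 198 ± 31.4 in I-CBP112 and 231 ± 36.3 in C646. It fell with DMSO by 1.05 ± 0.33 on the log2 scale in the authors' deposited table (adjusted p = 0.013) and stood at -0.35 ± 0.32 with I-CBP112 (adjusted p = 0.67). The difference between I-CBP112 and DMSO was 0.70 ± 0.33 and did not pass (adjusted p = 0.23). Tcf7 and Lef1, which are among the factors that bind DNA beside beta-catenin, had means over all libraries of 18.5 and 5.94 counts, too few for a call. Tcf7l1 and Tcf7l2, which stand in the list of nuclear factors below, were tested and did not pass. In the authors' deposited tables they were at -0.04 ± 0.36 and -0.08 ± 0.24 with DMSO, and at 0.12 ± 0.36 and -0.15 ± 0.24 with I-CBP112.

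**Figure D4:**
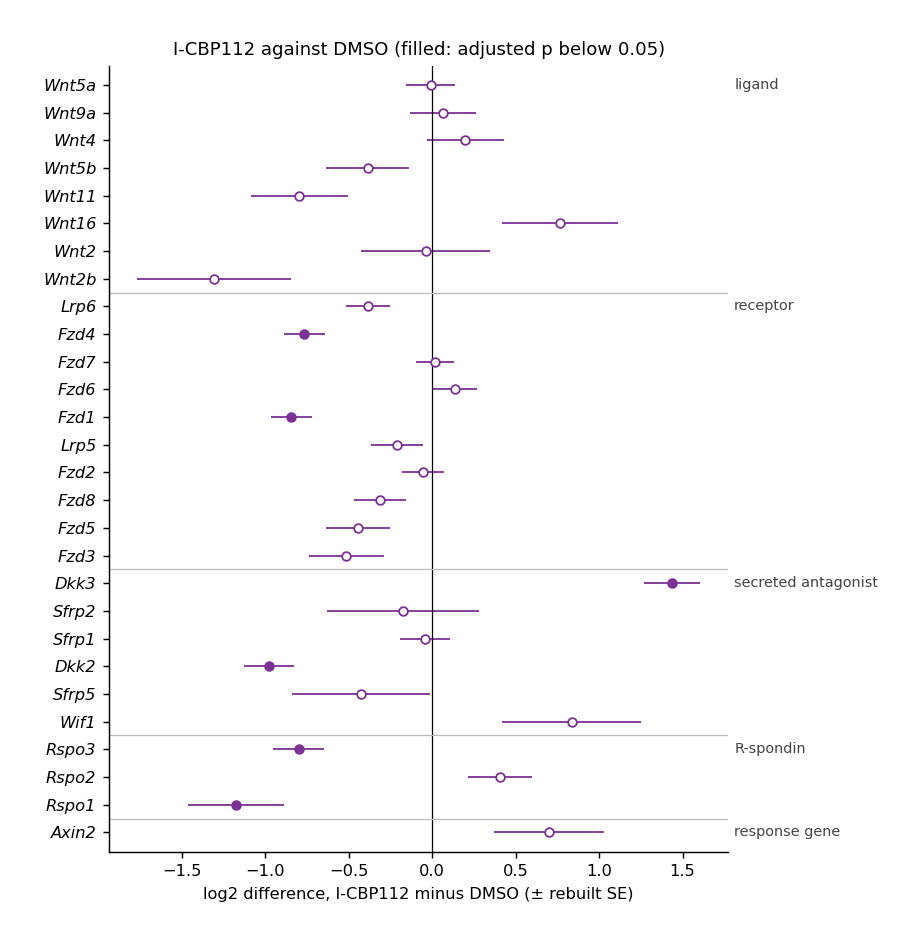
Log2 difference between I-CBP112 and DMSO (± SE rebuilt from the 3 deposited ones) for the 28 tested genes; filled points have an adjusted p below 0.05. Dkk3 at 1.44 is the 1 filled point right of 0, and Fzd1, Fzd4, Dkk2, Rspo1 and Rspo3 are the 5 left of it.

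Set directly against DMSO, I-CBP112 differed in 6 of the 28 genes, 5 lower (Fzd1, Fzd4, Dkk2, Rspo1 and Rspo3) and 1 higher (Dkk3), where the same test called 6.97% of all 14830 genes, 639 higher and 395 lower. With the standard errors of both deposited values added in quadrature, an upper bound, 5 of the 6 passed, Rspo1 being lost with an adjusted p of 0.15. C646 differed from DMSO in 14 of 28 genes, 13 of them higher with C646 and 1, Fzd3, lower, against 15.8% of all genes; with the upper bound 5 of these passed. At the same dose of 5 µM and the same time, I-CBP112 differed from C646 in 16 of 28 genes, 14 lower and 2 (Dkk3 and Fzd3) higher, against 9.80% of all genes, and 10 passed with the upper bound. The 3 comparisons share groups with each other and with those against ethanol. Dkk2 was 3.90 times lower with I-CBP112 than with C646 (log2 difference -1.96 ± 0.15, adjusted p = 5.82e-36) and Dkk3 was 1.87 times higher (0.90 ± 0.17, adjusted p = 3.27e-06).

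With C646 the 28 genes lay between -0.18 (Sfrp5) and 0.27 (Wnt2) on the log2 scale in the authors' deposited table, and 25 were within 0.1 of 0. For Dkk3 the 95% interval ran from -0.31 to 0.34, for Sfrp1 from -0.33 to 0.25 and for Fzd1 from -0.28 to 0.19; the I-CBP112 values of these 3 genes lay outside the intervals. For Axin2 it ran from -0.76 to 0.50. Over all 14830 tested genes the Wald statistics of the C646 table had a standard deviation of 0.61 and 0.748% of these genes had an unadjusted p below 0.05; in the DMSO and I-CBP112 tables the standard deviations were 2.23 and 1.86. The cause was not tested.

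Other genes of the Wnt pathway were grouped into 7 lists, some genes standing in more than 1 list, and with C646 0 genes of any list were called. Over all tested genes 16.0% were called with DMSO and 9.90% with I-CBP112, and no list was tested as a set. The list of other secreted antagonists and binders had 5 of 7 tested genes lower with DMSO (median log2 -0.51) and 3 of 7 with I-CBP112 (median -0.75), and 0 higher. It includes Igfbp4, an IGF-binding protein that also inhibits canonical Wnt signals, at -0.97 ± 0.13 and -1.67 ± 0.13, and Cthrc1, a Wnt5a-binding matrix protein, at -1.79 ± 0.15 and -0.89 ± 0.15 in the authors' deposited tables of DMSO and I-CBP112. Sdc1, a cell-surface proteoglycan, was at -0.80 ± 0.18 with DMSO and -0.42 ± 0.18 with I-CBP112 there, the latter not past the test (adjusted p = 0.13). Gpc3, a glypican, fell in both, at -0.51 ± 0.13 with DMSO (adjusted p = 7.64e-04) and -0.75 ± 0.13 with I-CBP112. Igfbp4 and Cthrc1 differed between the treatments, Igfbp4 being lower (-0.70 ± 0.13, adjusted p = 1.79e-05) and Cthrc1 higher (0.90 ± 0.15, adjusted p = 2.99e-07) with I-CBP112. Frzb, a further Sfrp whose symbol does not carry the family name, was lower with I-CBP112 than with DMSO (-1.27 ± 0.40, adjusted p = 0.029), at 55.7 against 134 counts. Against ethanol Frzb passed in neither of the authors' deposited tables. It was at 0.25 ± 0.39 with DMSO (adjusted p = 0.76) and -1.02 ± 0.41 with I-CBP112 (adjusted p = 0.097).

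Of 23 tested Wnt response genes, 7 fell and 2 rose with DMSO (median -0.19), and 9 fell and 1 rose with I-CBP112 (median -0.51). The shares called over all tested genes were 16.0% and 9.90%. Lgr5, an R-spondin receptor and response gene, was at -2.11 ± 0.21 (adjusted p = 2.57e-21) and -1.90 ± 0.21 (adjusted p = 2.27e-17) in the authors' deposited tables. It went from 1314 counts with ethanol to 305 with DMSO and 351 with I-CBP112, and had 1224 with C646. Rnf43, the ligase that removes Frizzleds, was at -2.61 ± 0.62 with DMSO (adjusted p = 4.67e-04) in the authors' deposited table, at a mean of 36.0 counts. With I-CBP112 Rnf43 was at -1.44 ± 0.58 there and did not pass (adjusted p = 0.10). The matricellular genes Wisp1 and Wisp2 were at -1.06 ± 0.12 and -0.90 ± 0.11 with DMSO and at -0.85 ± 0.12 and -1.11 ± 0.11 with I-CBP112 in the authors' deposited tables, all past the test. Nkd1, a feedback inhibitor that binds Dishevelled, was at -0.93 ± 0.15 and -0.68 ± 0.15 in the authors' deposited tables, and Sox9, also a chondrocyte marker, at -1.04 ± 0.23 and -0.90 ± 0.23. Several of these genes answer to other signals too, so that the list does not measure Wnt signalling alone.

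Of 21 tested genes of cytoplasmic transduction 1 rose and 1 fell with DMSO, and 1 rose and 2 fell with I-CBP112. For this list and those that follow, the shares to compare with are 16.0% of all tested genes with DMSO and 9.90% with I-CBP112. Btrc, which helps to degrade beta-catenin, was at 0.42 ± 0.14 with DMSO, and Amer1, a scaffold of the destruction complex, at -0.43 ± 0.14 with I-CBP112 in the authors' deposited tables. Ctnnb1, which encodes beta-catenin, was at 0.15 ± 0.11 with DMSO (adjusted p = 0.44) and at 0.38 ± 0.11 with I-CBP112 (adjusted p = 0.011) in the authors' deposited tables, with group means of 26260 in ethanol and 34172 in I-CBP112. Of 14 tested nuclear factors 1 rose with DMSO, Tle1, a Groucho co-repressor, at 0.38 ± 0.14 in the authors' deposited table, and 0 changed with I-CBP112; Crebbp stood at 0.01 ± 0.21 and 0.06 ± 0.21, and Ep300 at 0.03 ± 0.15 and -0.10 ± 0.15. Of 12 genes of non-canonical co-receptors and planar polarity 2 rose and 1 fell with DMSO and 1 fell with I-CBP112. In the authors' deposited table of DMSO Celsr1, a polarity cadherin, was at 2.44 ± 0.49, Mcam at -0.68 ± 0.14 and Daam1 at 0.44 ± 0.13. With I-CBP112 these were at 1.20 ± 0.50, -0.40 ± 0.14 and 0.36 ± 0.13, not past the test. Prickle1 was at -0.35 ± 0.12 with I-CBP112 and, not past the test, at -0.08 ± 0.12 with DMSO. Directly compared, only Vangl1 of this list differed between I-CBP112 and DMSO. Of 6 genes of Wnt secretion and modification 1 fell in each, Trabd2b, a protease that inactivates Wnts, at -0.64 ± 0.15 and -0.53 ± 0.15 in the authors' deposited tables. Of 6 R-spondin receptors and genes of receptor turnover, 2 fell (Lgr5 and Rnf43) and 1 rose (Kremen1, at 0.40 ± 0.12 in the authors' deposited table) with DMSO and 1 fell (Lgr5) with I-CBP112. In the lists of cytoplasmic transduction, nuclear factors, Wnt secretion and receptor turnover, no gene passed in the direct comparison of I-CBP112 with DMSO.

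Markers of cell types moved with these treatments as well, where 16.0% of all tested genes were called with DMSO and 9.90% with I-CBP112. All 12 fibroblast markers were tested; 10 fell with DMSO and 8 with I-CBP112, and their summed mean count was 1092140 in ethanol, 694581 in DMSO, 666572 in I-CBP112 and 1074960 in C646. Of 11 cardiomyocyte markers 8 rose with DMSO and 11 with I-CBP112, with sums of 118297, 331215, 333133 and 120481 in that order. Smooth muscle markers had 6 of 7 lower with DMSO and 1 of 7 with I-CBP112 (sums of 127891, 87445, 131294 and 126163). Chondrocyte and osteoblast markers had 3 of 3 tested lower in both, and their sum went from 5075 to 2552 and 2116, with 4920 under C646. Endothelial markers had 1 of 3 tested lower in both and summed to 1057, 627, 689 and 1055, with Pecam1, Cdh5, Tie1, Emcn and Vwf below the mean needed for a test, and macrophage and leukocyte markers had 0 of 8 tested lower with DMSO and 3 with I-CBP112 (Cx3cr1, Adgre1 and Csf1r), with sums of 1330, 1170, 1068 and 1258. Adipocyte markers had 3 of 6 lower in both (sums of 6058, 5737, 3994 and 6135), neuron and glia markers 1 of 4 lower with DMSO and 0 with I-CBP112 (5228, 4302, 6945 and 5178), and of the epithelial markers Krt14 alone was tested and fell in both (121, 40.8, 41.2 and 118). No marker of these lists was at 0. The part of these shifts in the changes of the Wnt genes was not tested.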

How the data were processed

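RNA of 8 libraries was sequenced, 2 for each treatment, with groups taken from the sample titles. Per the submitters' processing notes, the authors quantified reads with kallisto 0.43.1 on GRCm38.p5 and used DESeq2 (version not given in the sources used here). 3 tables of the authors' comparisons were deposited. Their signal, baseMean, is DESeq2's mean of size-factor normalised counts per the file headers, was read as that over all 8 libraries, and was equal in the 3 tables for 50600 genes. The log2 fold change, its standard error, the score (Wald statistic, equal to their quotient), the p-value and the adjusted p-value (Benjamini-Hochberg) are the authors' deposited values. Transcript length (other unit) is a deposited column per the file headers. Library depths are not used here.

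No reference group is named in them, and it was read as ethanol, which has no table. Of 2312 genes with a baseMean above 0 and below 0.16, 1708 were higher in 1 named treatment only and 598 lower in all 3. From baseMean and the fold changes the mean of each group was rebuilt. The SE of a group mean was computed from that mean, 2 libraries and 1 dispersion per gene, averaged over the 3 deposited standard errors. Treatments were compared with each other by a normal test with standard errors rebuilt from 1 dispersion per gene, adjusted over 14830 genes; the dispersion from 2 tables gave 97.6%, 97.8% and 97.6% of deposited standard errors (DMSO, I-CBP112, C646) to within 1%. Python 3.11.15, numpy 2.4.6, pandas 2.3.3 and scipy 1.17.1 were used. Positions and principal (APPRIS) transcript lengths are from GENCODE M21 (GRCm38), promoters from RefSeq (GRCm38.p6).

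The genes, lists, motifs and comparisons were chosen with earlier results of these data known. Named were all genes of the rule past an adjusted p of 0.05 or with a baseMean of 50 or more, up to 3 genes per pathway list and table with the largest change past the test, and Crebbp and Ep300. Beta-catenin was among these. Frzb, Tcf7l1 and Tcf7l2, chosen after their values were seen, were not.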

Additional observations from a re-analysis of the deposited data

How the results depend on the processing

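No paired analysis was possible because the tables hold no values of single libraries; leaving out each replicate and the replicate block were not run for the same reason. Under Student's t (4 degrees of freedom), 0 genes of the rule passed in any comparison, from 15 with DMSO, 15 with I-CBP112, 6 between I-CBP112 and DMSO, 14 between C646 and DMSO and 16 between I-CBP112 and C646; 1 gene of all tested passed with DMSO and 0 in the other comparisons. Asking for at least 1.5-fold left 9 of 15 genes with DMSO. An adjusted p below 0.01 left 9 genes between C646 and DMSO and 10 between I-CBP112 and C646, and the upper bound of the standard error left 5 and 10. The counts stayed within 1.5 times under adjustment over all genes and centring in all 6 comparisons, and under a mean of 50 or more and scaling to equal totals in those against ethanol, where alone these were run, and C646 stayed at 0 in every alternative, the adjustment over the genes tested with DMSO, chosen after seeing the data, included. Adjusted over all genes with a p-value, 12 calls of single genes were lost: Fzd8, Rspo1 and Wif1 with DMSO, Sfrp2, Wnt2b and Wnt4 with I-CBP112, and 6 between treatments. No single gene that was called changed sign. Centring moved fold changes by at most 0.03 and scaling to totals by at most 0.02 (log2). Over all genes, the limit of 1.5-fold left 1441 of 2368 calls with DMSO and 959 of 1468 with I-CBP112, and an adjusted p below 0.01 left 1522 and 976, and 596 of 1034, 1526 of 2349 and 951 of 1454 between treatments. The upper bound left 237, 839 and 501 of those 3.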

Other observations

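Among the genes of the rule, 4 pairs of Wnt ligand genes are neighbours in the genome less than 50 kb apart (GENCODE M21, GRCm38), and in 3 of these pairs both genes had a mean below 10 counts over all libraries: Wnt6 (6.21) and Wnt10a (2.96) on chromosome 1, Wnt9b (0.387) and Wnt3 (0.625) on chromosome 11, and Wnt10b and Wnt1 (0 for Wnt1) on chromosome 15. The fourth pair was unequal. Wnt3a (chromosome 11, 59248033 to 59290752, minus strand) and Wnt9a (59306928 to 59333552, plus strand) lie back to back with 16175 bases between them, and had mean normalised counts of 0.121 and 378. Per kb of principal transcript the mean over all libraries was 114 for Wnt9a.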
